A study of Mus musculus with 2 samples.

Results

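The genes described here encode the core enzymes and binding proteins of N6-methyladenosine (m6A), the commonest internal modification of mRNA. The 10 genes were found by symbol: the writers Mettl3, Mettl14, Wtap and Zc3h13, the readers Ythdc1, Ythdf1, Ythdf2 and Ythdf3, and the erasers Fto and Alkbh5. They are 10 of 55536 genes in the annotation, of which 22028 are protein-coding, and all 10 had a row in both quantifications. In mm10 the writers lie at chr14:52294841-52305128 (Mettl3), chr3:123368297-123386108 (Mettl14), chr17:12966796-12994169 (Wtap) and chr14:75284373-75344426 (Zc3h13). The readers lie at chr5:86804221-86836659 (Ythdc1), chr2:180904377-180920949 (Ythdf1), chr4:132184912-132212303 (Ythdf2) and chr3:16183212-16217037 (Ythdf3), and the erasers at chr8:91313525-91668439 (Fto) and chr11:60536381-60558512 (Alkbh5).

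m6A is placed on nascent RNA in the nucleus by a methyltransferase complex, in which METTL3 is the catalytic subunit, METTL14 holds the RNA, WTAP keeps the pair in nuclear speckles and ZC3H13 helps to retain the complex in the nucleus. The mark is read by proteins with a YTH domain. YTHDC1 acts in the nucleus on splicing and export, whereas the YTHDF proteins bind modified mRNA in the cytoplasm, where they are best known for promoting its decay. FTO and ALKBH5 are dioxygenases that remove the methyl group. In macrophages the pathway is known for tuning the stability of transcripts induced through Toll-like receptors.

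The 2 libraries hold total RNA, depleted of ribosomal RNA, from the nucleoplasm of C57BL/6J bone marrow-derived macrophages, phagocytes differentiated from marrow in culture. Lipid A, the TLR4-activating moiety of endotoxin, was applied at 100 ng/ml for 12 h, removed for 12 h and applied again at 100 ng/ml for 90 min. Both libraries belong to this 1 group, so the data hold 0 comparisons between conditions, and the values are levels and not responses to lipid A. The labels call the libraries biological replicates but carry 1 donor entry for both, so the spread between them may be technical, and they name 1 µg of input RNA for replicate 1 and 500 ng for replicate 2.

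Gene counts summed to 29400104 in replicate 1 and 17789543 in replicate 2. All 8 macrophage markers examined, among them Adgre1 and Csf1r, were at or above 1 TPM (transcript abundance scaled for length and for the library's total) in both libraries, with summed levels of 1617 TPM in replicate 1, against 2248 TPM in replicate 2. Of 15 markers of T cells, B cells, neutrophils, erythroid, stromal and endothelial cells, 0 reached 1 TPM in both by RSEM, 6 were at 0 in both, and their summed level was 1.06 TPM in replicate 1, against 2.37 TPM in replicate 2. By kallisto the T-cell marker Cd3d was at 1.24 TPM in replicate 1, against 4.58 TPM in replicate 2, and the erythroid marker Alas2 at 0.898 TPM in replicate 1, against 3.47 TPM in replicate 2. The nuclear RNAs Malat1, Neat1 and Xist summed to 14204 TPM in replicate 1, against 24864 TPM in replicate 2. Most of the sum was Malat1, at 13291 TPM in replicate 1, against 24200 TPM in replicate 2. Xist was also higher in replicate 2 (132 TPM in replicate 1, 179 TPM in replicate 2), but Neat1 was lower (781 TPM in replicate 1, 486 TPM in replicate 2). The part of these in the differences between the libraries given below was not tested.

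All 10 m6A genes were at or above 1 TPM in both libraries, where 38.6% of all protein-coding genes were, and 8 of the 10 were at or above 5 TPM in both, against 21.5% of all protein-coding genes. The members' median level was 8.29 TPM, and that of all protein-coding genes 0.220 TPM, or 4.23 TPM over the 11368 of them whose mean count reached 10. By kallisto, the second quantification, 9 of 10 reached 1 TPM in both libraries, the exception being Mettl14 at 0.986 TPM in replicate 1, against 1.57 TPM in replicate 2. In RNA of a cell population, fewer expressing cells and less RNA per cell cannot be told apart.

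**Figure D1:**
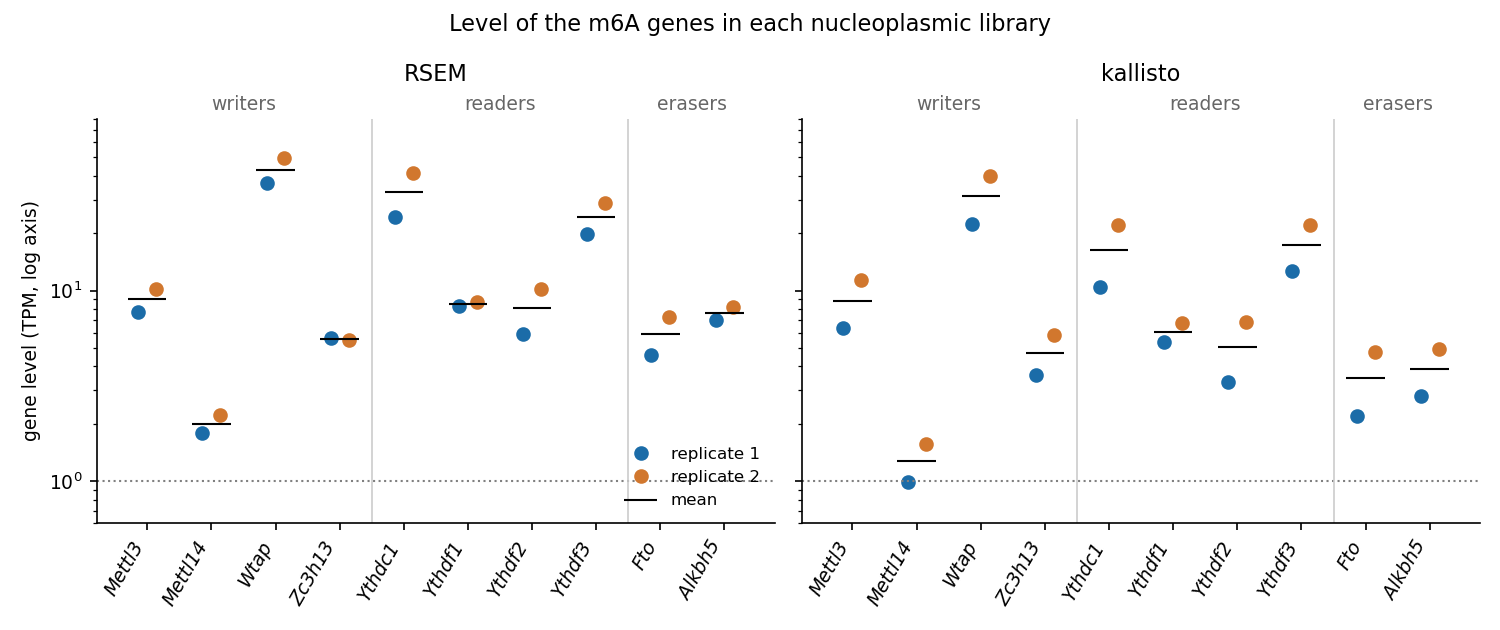
Gene level in TPM (log axis) of the 10 m6A genes, grouped by role, in replicate 1 and replicate 2, from the RSEM (left) and kallisto (right) tables; the horizontal bar is the mean and the dotted line 1 TPM. Wtap, Ythdc1 and Ythdf3 lie above the other 7 genes, and Mettl14 lies lowest, in both panels by mean; by kallisto, Ythdc1 in replicate 1 (10.5 TPM) lies below Mettl3 in replicate 2 (11.4 TPM).

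Among the writers, Wtap, the adaptor that brings the catalytic pair to its substrates, was highest. It measured 36.8 TPM in replicate 1, against 49.6 TPM in replicate 2, a mean of 43.2 ± 9.07 TPM (SD, n = 2), with expected counts of 3313 in replicate 1 and 2517 in replicate 2. This placed Wtap 756th of 22028 protein-coding genes. Mettl3 measured 7.71 TPM in replicate 1, against 10.25 TPM in replicate 2 (8.98 ± 1.80 TPM), with expected counts of 485 in replicate 1 and 336 in replicate 2. Mettl14, the partner without catalytic activity, measured 1.79 TPM in replicate 1, against 2.21 TPM in replicate 2 (2.00 ± 0.297 TPM), with expected counts of 327 in replicate 1 and 272 in replicate 2, the lowest level of the 10 genes in both libraries. Zc3h13 measured 5.66 TPM in replicate 1, against 5.47 TPM in replicate 2 (mean 5.57 TPM, SD 0.134), with expected counts of 1549 in replicate 1 and 841 in replicate 2. Wtap was thus above the other writers in both libraries by more than their spread.

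Among the readers, the nuclear Ythdc1 was highest, with 24.4 TPM in replicate 1, against 41.3 TPM in replicate 2 (32.9 ± 11.9 TPM), with expected counts of 4290 in replicate 1 and 3594 in replicate 2. Ythdf3 followed with 19.8 TPM in replicate 1, against 28.9 TPM in replicate 2 (24.3 ± 6.43 TPM), with expected counts of 4565 in replicate 1 and 3336 in replicate 2. Ythdf1 measured 8.29 TPM in replicate 1, against 8.76 TPM in replicate 2 (8.53 ± 0.332 TPM), and Ythdf2, the reader best known for recruiting deadenylases, measured 5.93 TPM in replicate 1, against 10.2 TPM in replicate 2 (8.07 ± 3.03 TPM). The ranges of Ythdf1 and Ythdf2 overlapped, and both lay below that of Ythdf3.

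The erasers lay in the lower part of the list. Alkbh5 measured 7.02 TPM in replicate 1, against 8.21 TPM in replicate 2 (7.62 ± 0.841 TPM), with expected counts of 1889 in replicate 1 and 1172 in replicate 2. Fto measured 4.57 TPM in replicate 1, against 7.28 TPM in replicate 2 (5.93 ± 1.92 TPM), with expected counts of 858 in replicate 1 and 744 in replicate 2. Alkbh5 was the higher of the pair within each library, but the ranges of the 2 genes overlapped. Fto, the longest member with 354915 bases, spans 8 other annotated genes. On the opposite strand, Gm45427 shares 304 exon bases with Fto (5 counts in replicate 1 and 10 in replicate 2) and 4831440D22Rik shares 144 (9.56 counts in replicate 1 and 17.9 in replicate 2). Whether the counting used strand is not known here, so reads of such shared bases may have been counted for either gene.

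In order of mean TPM the genes ran Wtap, Ythdc1, Ythdf3, Mettl3, Ythdf1, Ythdf2, Alkbh5, Fto, Zc3h13 and Mettl14. The range over the 2 libraries separated neighbours at only 2 steps of this order, Ythdf3 over Mettl3 (2.71-fold in mean TPM) and Zc3h13 over Mettl14 (2.78-fold). Wtap, Ythdc1 and Ythdf3 kept their order in each library although their ranges overlapped. From Mettl3 to Zc3h13, a stretch of 6 genes, every pair of neighbours overlapped in TPM, though Alkbh5 and Fto did not when rescaled. By kallisto, Ythdf3 came before Ythdc1 and Zc3h13 before Alkbh5 and Fto.

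The share of the level that lies on protein-coding isoforms differed widely between members. GENCODE gives each transcript a biotype, and a retained-intron transcript is one that keeps intronic sequence and is not annotated as coding. Of the 10 genes, Mettl3, Mettl14, Ythdc1 and Ythdf2 have such isoforms, and the other 6 have none. All 4 counted among the 5524 genes that have isoforms of both kinds, retained-intron and protein-coding, and reach 1 TPM in each library. The share of transcript TPM on retained-intron isoforms had a median of 44.3% over these 4 members and 30.9% over the 5524 genes. In nucleoplasmic RNA, intronic reads of transcripts not yet spliced cannot be told apart from those of retained-intron isoforms. These shares may include both.

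Ythdc1 had the highest such share, 60.5% in replicate 1 and 74.5% in replicate 2 (67.5 ± 9.88%, n = 2). Mettl3 had 48.4% in replicate 1 and 59.7% in replicate 2 (54.0 ± 7.98%). Ythdf2 had 26.3% in replicate 1 and 42.7% in replicate 2 (34.5 ± 11.6%), and Mettl14 had 0% in both. By kallisto the shares were 53.1% in replicate 1 and 66.8% in replicate 2 for Ythdc1, 54.2% in replicate 1 and 65.8% in replicate 2 for Mettl3, 34.7% in replicate 1 and 41.4% in replicate 2 for Ythdf2, and 20.8% in replicate 1 and 8.39% in replicate 2 for Mettl14. By the RSEM values, 2 of the 4 were above 50%, as were 20.4% of the 5524 genes. Mettl3 fell short of 50% in replicate 1 and as a share of expected counts (39.6%). The share was higher in replicate 2 for 3 of the 4, and for 61% of the 5524 genes.

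**Figure D2:**
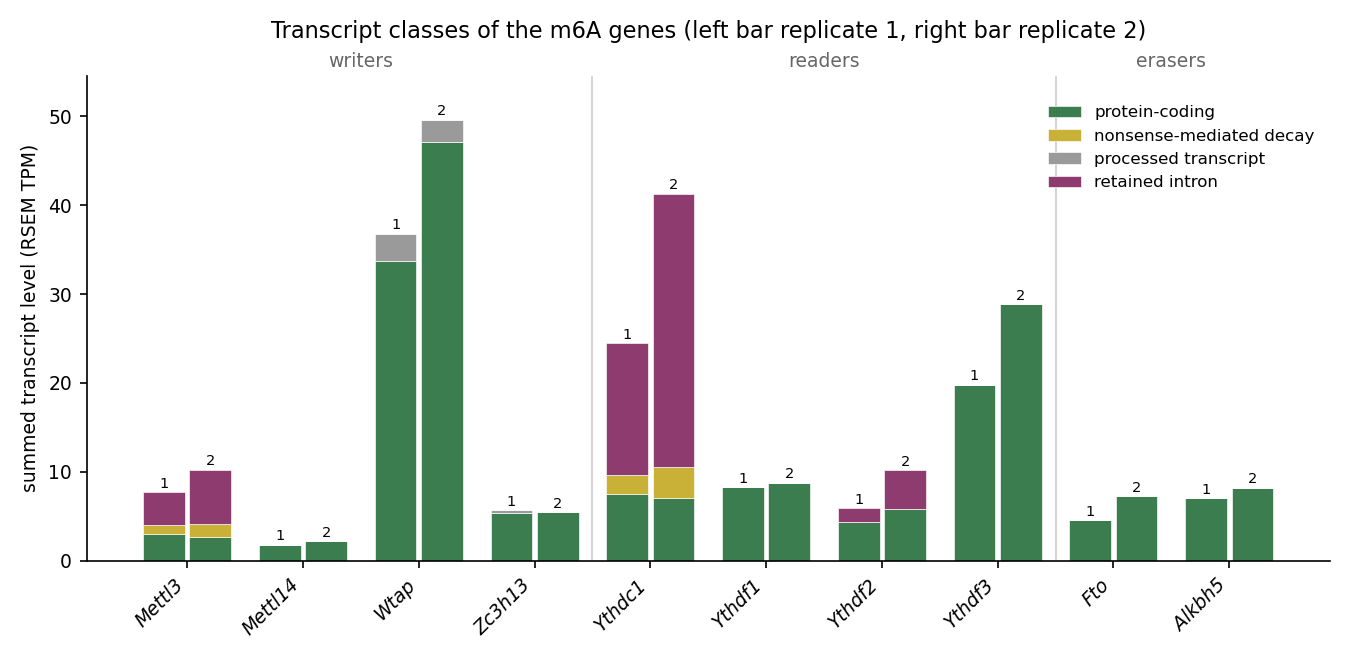
Summed RSEM TPM of each gene's transcripts by GENCODE biotype, with replicate 1 as the left and replicate 2 as the right bar of each gene. The retained-intron segment is the larger part of Ythdc1 in both libraries (14.8 TPM in replicate 1, against 30.7 TPM in replicate 2), and is absent or at 0 in 7 of the 10 genes.

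Split in this way, the coding part of Ythdc1 was 7.48 TPM in replicate 1, against 7.11 TPM in replicate 2, while its retained-intron part was 14.8 TPM in replicate 1, against 30.7 TPM in replicate 2. On the log2 scale, replicate 1 over replicate 2 gave 0.07 for the coding part and -1.06 for the retained-intron part. Mettl3 was alike, with a coding part of 2.96 TPM in replicate 1, against 2.70 TPM in replicate 2 and a retained-intron part of 3.73 TPM in replicate 1, against 6.11 TPM in replicate 2, log2 ratios of 0.13 and -0.71. In Ythdf2 the coding part was 4.37 TPM in replicate 1, against 5.85 TPM in replicate 2, and the retained-intron part 1.56 TPM in replicate 1, against 4.36 TPM in replicate 2, log2 ratios of -0.42 and -1.48. The most abundant Ythdf2 isoform by RSEM was the coding Ythdf2-203, at 3.98 TPM in replicate 1, against 5.31 TPM in replicate 2. Over all eligible genes with values in both libraries the median log2 ratio was -0.16 for the coding and -0.43 for the retained-intron part. By kallisto, unlike RSEM, the coding part was lower in replicate 1 for Ythdc1 (3.72 TPM, against 5.11 TPM in replicate 2) and Mettl3 (1.33 TPM, against 1.96 TPM in replicate 2), so the near-equal coding levels of these genes hold for RSEM alone. The input RNA, the depth and the levels of Malat1 and Neat1, in opposite directions, differed between the same libraries, and their part was not tested.

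The introns concerned could be read from the transcript sequences. By mean RSEM TPM the leading retained-intron isoform of Ythdc1 was Ythdc1-207 (5.57 TPM in replicate 1, against 9.55 TPM in replicate 2), although Ythdc1-204, described after it, was higher in replicate 2. Ythdc1-207 holds 2 introns of the leading coding isoform whole, of 2432 bases (chr5:86828122-86830553) and 1027 bases (chr5:86830637-86831663). The leading one of Mettl3 by RSEM, Mettl3-215 (1.41 TPM in replicate 1, against 3.35 TPM in replicate 2), holds the first 1267 of the 4486 bases of intron 1 (chr14:52300402-52304887). By kallisto Mettl3-203 was above it in both libraries, at 1.66 TPM in replicate 1, against 3.44 TPM in replicate 2, where Mettl3-215 was at 0.927 TPM in replicate 1, against 2.56 TPM in replicate 2. The one of Ythdf2, Ythdf2-202 (1.56 TPM in replicate 1, against 4.36 TPM in replicate 2), holds the whole of intron 1, of 443 bases (chr4:132211457-132211899). The exon and intron boundaries that these isoforms read through are the following, each with 25 coding bases of the exon and 35 bases of the intron, in mm10 from the GENCODE M21 transcripts, on the gene's strand and 5′ to 3′. Capitals mark the GT with which the intron starts.
Ythdc1 first retained intron, chr5:86828097-86828156, plus strand: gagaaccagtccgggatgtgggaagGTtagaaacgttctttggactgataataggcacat
Ythdc1 second retained intron, chr5:86830612-86830671, plus strand: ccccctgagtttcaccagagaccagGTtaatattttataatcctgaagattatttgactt
Mettl3 intron 1, chr14:52304853-52304912, minus strand: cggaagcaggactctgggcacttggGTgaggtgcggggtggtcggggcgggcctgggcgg
Ythdf2 intron 1, chr4:132211865-132211924, minus strand: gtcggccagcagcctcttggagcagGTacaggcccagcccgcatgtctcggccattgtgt

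**Figure D3:**
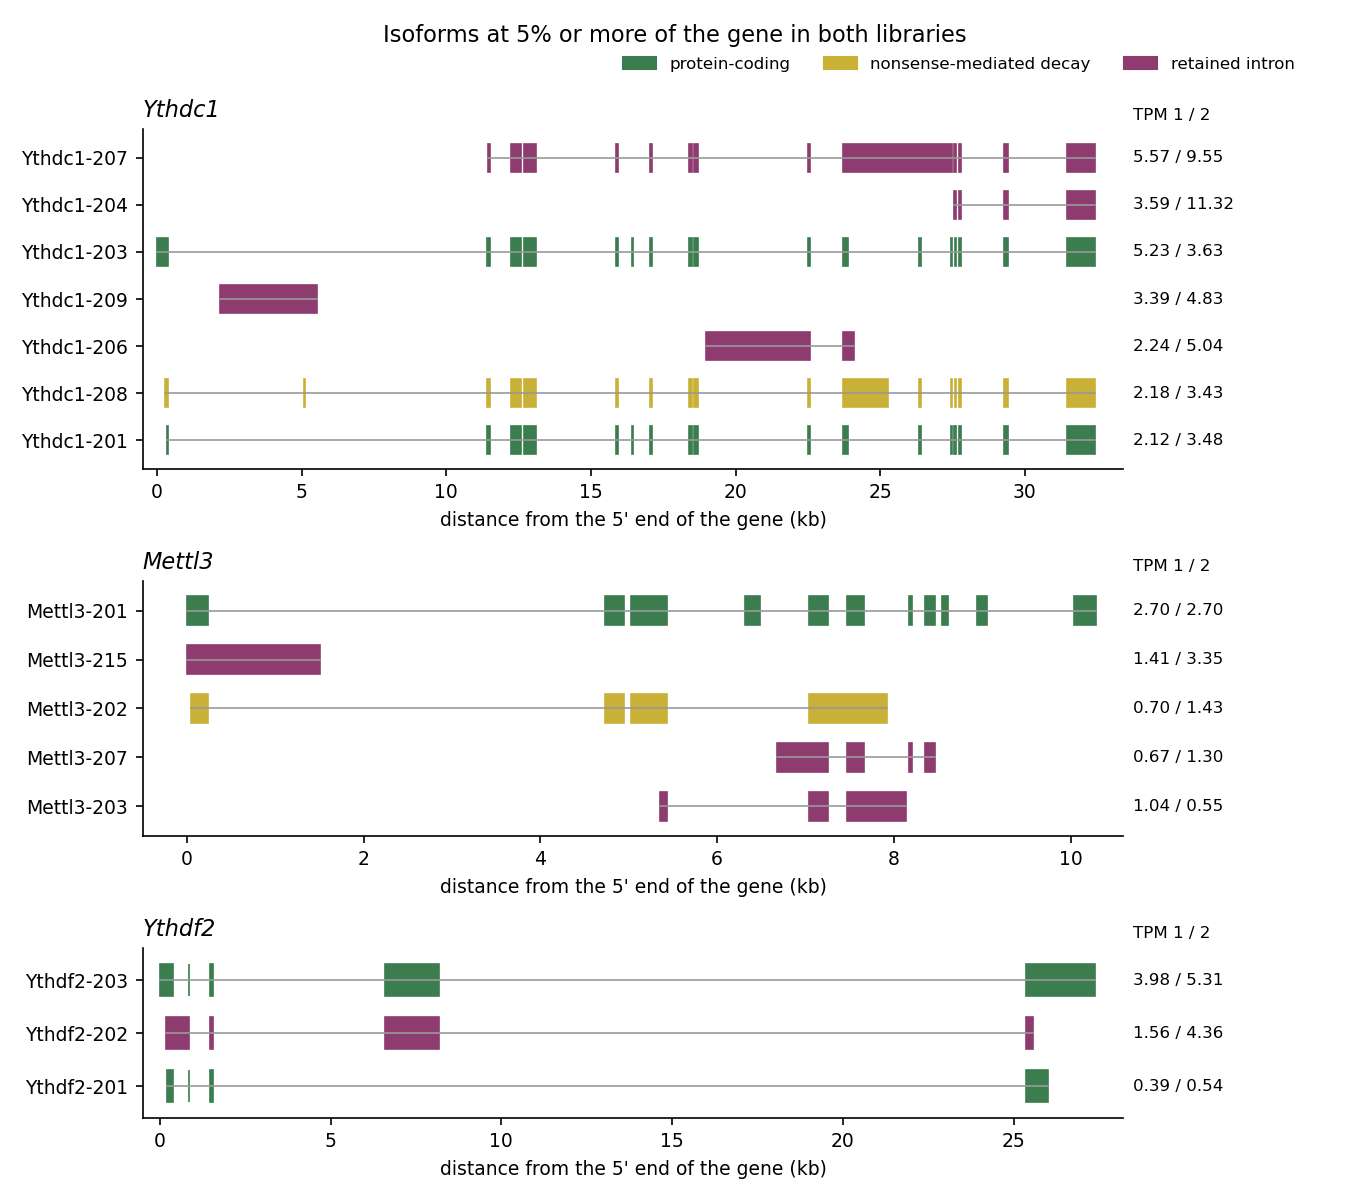
Exons (boxes) of the Ythdc1, Mettl3 and Ythdf2 isoforms that hold at least 5% of the gene's TPM in both libraries, by distance from the 5' end of the gene in kb and coloured by biotype; the numbers at the right are RSEM TPM in replicate 1 and replicate 2. Ythdc1-207, Mettl3-215 and Ythdf2-202 extend over introns of the coding isoforms, whereas Ythdc1-204 lies almost wholly on the last exons.

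The biotype does not always mean intronic sequence. Ythdc1-204 (3.59 TPM in replicate 1, against 11.3 TPM in replicate 2) is annotated as a retained-intron transcript, yet 10 of its 1246 bases lie outside the exons of coding isoforms. In an alternative added after the values were seen, isoforms with fewer than 10% of their bases outside those exons were not counted as retained-intron. They stayed in the gene's total. The retained-intron share of Ythdc1 was then 45.8% in replicate 1 and 47.0% in replicate 2 (46.4 ± 0.875%), below 50% and almost equal in the 2 libraries. On this count the retained-intron part of Ythdc1 was 11.2 TPM in replicate 1, against 19.4 TPM in replicate 2, a smaller gap than that given above. The coding part given above leaves Ythdc1-204 out, so its near-equal level in the 2 libraries also rests on that biotype. The shares of Mettl3 and Ythdf2 did not move. All 3335 bases of Ythdc1-209 (3.39 TPM in replicate 1, against 4.83 TPM in replicate 2) are intronic. The exons of Ythdc1 share 631 bases with those of the long non-coding gene Gm43055 on the same strand, which was at 0 counts in both libraries.

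The bases of the METTL3 and METTL14 motifs lay on different fractions of their RNA. METTL3 carries the catalytic DPPW motif, which begins at residue 395 of the protein encoded by Mettl3-201. METTL14, the partner without catalytic activity, carries EPPL, which begins at residue 192. Both stretches are shown with the 12 motif bases in capitals, read from the same transcripts.
Mettl3, chr14:52297557-52297616, minus strand: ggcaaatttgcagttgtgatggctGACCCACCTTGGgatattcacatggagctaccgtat
Mettl14, chr3:123374781-123374840, minus strand: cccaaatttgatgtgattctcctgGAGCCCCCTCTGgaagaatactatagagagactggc
Of 15 Mettl3 isoforms, 6 contain these bases, and by RSEM they made up 70.4% of Mettl3 TPM in replicate 1 and 58.4% in replicate 2. The 1 coding isoform among them, Mettl3-201, made up 35.0% in replicate 1 and 26.4% in replicate 2, at 2.70 TPM in each library. In Mettl14 all 4 coding isoforms contain the EPPL bases and made up 100% of its TPM in both libraries by RSEM. Kallisto put 79.2% in replicate 1 and 91.6% in replicate 2 on them. The rest was on the 1 retained-intron isoform, which lacks these bases.

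The ratio of the catalytic pair changed with the isoforms counted. Over all isoforms Mettl3 exceeded Mettl14 4.31-fold in replicate 1 and 4.64-fold in replicate 2, a log2 ratio of 2.16 ± 0.08 (SD, n = 2). Over protein-coding isoforms the excess was 1.64-fold in replicate 1 and 1.22-fold in replicate 2, a log2 ratio of 0.50 ± 0.30. Kallisto gave an excess on coding isoforms of 1.70-fold in replicate 1 and 1.36-fold in replicate 2. The exons of Mettl3 share 933 bases with those of Tox4 on the opposite strand, which measured 13.2 TPM in replicate 1, against 13.4 TPM in replicate 2. Since it is not known whether the counting used strand, reads of these bases too may have been counted for either gene.

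Ordered by their coding isoforms, the genes ran Wtap (40.4 ± 9.51 TPM), Ythdf3 (24.3 ± 6.43 TPM), Ythdf1, Alkbh5 and Ythdc1 (7.30 ± 0.262 TPM), and ended with Ythdf2, Mettl3 (2.83 ± 0.184 TPM) and Mettl14. Ythdc1 moved from the second place over all isoforms to the fifth, and Mettl3 from the fourth to the ninth.

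The YTHDF paralogs were unequal. Ythdf3 made up 58.2% of their summed TPM in replicate 1 and 60.4% in replicate 2, Ythdf1 24.4% in replicate 1 and 18.3% in replicate 2, and Ythdf2 17.4% in replicate 1 and 21.3% in replicate 2. Ythdf3 held the largest share in both libraries and in both quantifications, and also over coding isoforms alone (61.0% in replicate 1 and 66.4% in replicate 2). The order of Ythdf1 and Ythdf2 differed between the libraries over all isoforms. Over coding isoforms Ythdf1 was above Ythdf2 in both, with 25.6% and 13.5% in replicate 1 and 20.1% and 13.5% in replicate 2.

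Paralogs can exchange reads in quantification where their sequences match. The 60 coding bases on which the YTHDF genes are most alike are shown with the 14 positions at which they differ in capitals, and 46 positions are the same in all.
Ythdf1, chr2:180911116-180911175, minus strand: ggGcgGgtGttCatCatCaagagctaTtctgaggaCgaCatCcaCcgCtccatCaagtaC
Ythdf2, chr4:132204561-132204620, minus strand: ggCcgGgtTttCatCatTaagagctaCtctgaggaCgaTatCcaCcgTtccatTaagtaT
Ythdf3, chr3:16204936-16204995, plus strand: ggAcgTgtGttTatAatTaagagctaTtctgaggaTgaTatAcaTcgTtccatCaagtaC
Over the longest coding sequences, the longest run shared by any pair was 22 bases, between Ythdf1 and Ythdf2, and no pair shared a run of 31 bases.

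By RSEM, the remaining members were mostly on coding isoforms. Wtap had 91.6% of its TPM on them in replicate 1 and 95% in replicate 2, led by Wtap-204 (12.6 TPM in replicate 1, against 20.2 TPM in replicate 2), Wtap-203 (8.20 TPM in replicate 1, 9.14 TPM in replicate 2) and Wtap-201 (4.84 TPM in replicate 1, 8.42 TPM in replicate 2). Zc3h13 was split between Zc3h13-203 (3.28 TPM in replicate 1, 3.64 TPM in replicate 2) and Zc3h13-201 (2.05 TPM in replicate 1, 1.84 TPM in replicate 2). Fto was split between Fto-203 (1.90 TPM in replicate 1, 3.63 TPM in replicate 2) and Fto-201 (2.30 TPM in replicate 1, 2.83 TPM in replicate 2), each the higher of the pair in 1 library. Alkbh5-201 and Ythdf1-201 carried nearly all of their genes by RSEM, with 100% in both libraries for Alkbh5-201 and with 95.5% in replicate 1 and 92.3% in replicate 2 for Ythdf1-201. By kallisto Ythdf1-201 was at 2.70 TPM of the gene's 5.37 TPM in replicate 1 and at 3.86 of 6.74 TPM in replicate 2.

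By RSEM, Mettl14 spread over Mettl14-204 (0.660 TPM in replicate 1, against 1.20 TPM in replicate 2), Mettl14-201 (0.860 TPM in replicate 1, 0.300 TPM in replicate 2) and Mettl14-202 (0.280 TPM in replicate 1, 0.710 TPM in replicate 2). By kallisto Mettl14-204 was at 0.03 TPM in replicate 1 and 0 in replicate 2. Ythdf3-201 led Ythdf3 by RSEM with 14.7 TPM in replicate 1, against 17.2 TPM in replicate 2, with Ythdf3-202 (3.78 TPM in replicate 1, 5.78 TPM in replicate 2) and Ythdf3-203 (1.32 TPM in replicate 1, 5.92 TPM in replicate 2) below it. The quantifications also disagreed on processed transcripts, which are neither coding nor annotated as intron-retaining. Ythdf3-204 was at 0 in both RSEM tables but at 3.93 TPM in replicate 1, against 5.69 TPM in replicate 2 by kallisto. Processed transcripts of Zc3h13 were at 0.330 TPM in replicate 1 and 0 in replicate 2 by RSEM, and by kallisto at 1.32 TPM in replicate 1, against 2.42 TPM in replicate 2.

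Between the libraries no member differed by more than 2-fold. Ratios of replicate 1 over replicate 2 were taken from RSEM counts scaled by TMM, a factor that equates the bulk of genes, so they can differ from ratios of TPM. Of 10 members 0 were past 2-fold, where 13.4% of the 14831 genes whose mean count reached 10 were. Those genes include non-coding ones. Of the 11368 protein-coding genes among them, 570 were past 2-fold higher in replicate 1 and 425 past 2-fold lower. The members' log2 ratios had a median of -0.13 and ran from -0.35 for Fto to 0.32 for Zc3h13. The median was -0.01 over all genes and 0.05 over the protein-coding ones. Zc3h13 (0.32, counting interval 0.20 to 0.45), Ythdf1 (0.32, 0.18 to 0.46) and Alkbh5 (0.13, 0.03 to 0.24) were higher in replicate 1. The lowest were Fto (-0.35, -0.50 to -0.21), Ythdf2 (-0.33, -0.46 to -0.19), Ythdc1 (-0.30, -0.37 to -0.24) and Mettl14 (-0.29, -0.53 to -0.05).

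Mettl3 was nearest to 0 (-0.03, -0.23 to 0.18). The intervals cover counting error and not the spread between libraries. Zc3h13 kept its sign under all 6 ways of scaling tried, as did Mettl14, Ythdf2 and Fto with the opposite sign, and the other 6 genes changed sign under at least 1. Library totals moved the median of all genes to -0.18. Taken relative to the median of each scaling (over protein-coding genes at 1 TPM or above for TPM), a centring chosen after the data were seen, Zc3h13, Ythdf1 and Alkbh5 were above it under all 6, and Mettl14, Ythdf2 and Fto below it under all 6. The other 4 were below it except by kallisto counts, whose log2 ratios were 0.07 for Mettl3, 0.03 for Wtap, 0.00 for Ythdc1 and 0.22 for Ythdf3. The scalings of RSEM counts differ by nearly a constant, which centring removes. Their agreement after centring was thus fixed in advance, and only kallisto counts and TPM are further measures. On the TPM scale 9 of 10 members were lower in replicate 1, where the median log2 ratio of protein-coding genes at 1 TPM or above was -0.25.

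**Figure D4:**
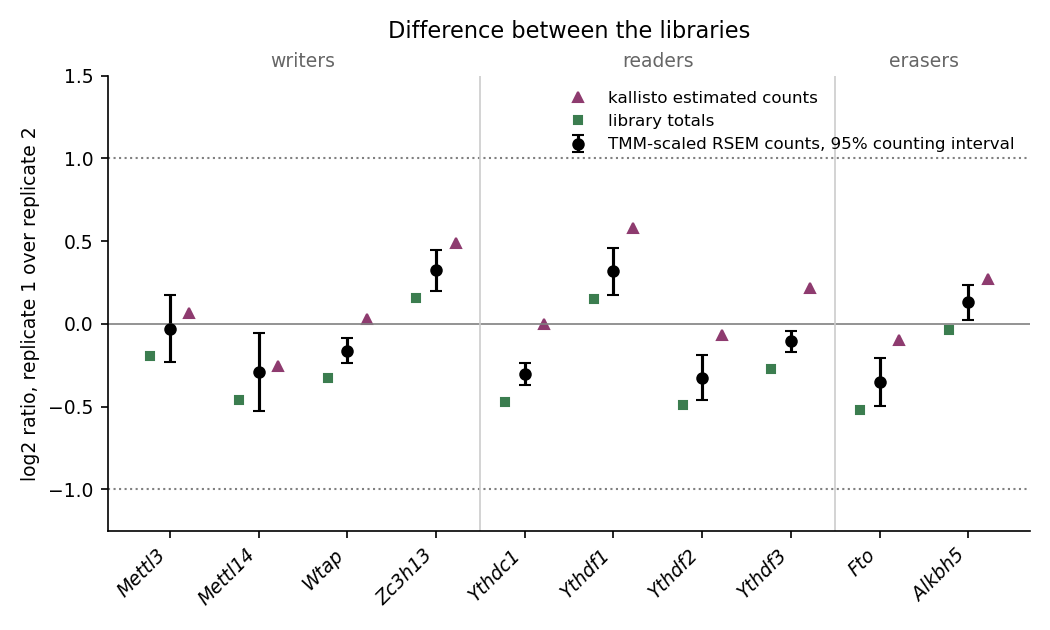
Log2 ratio of replicate 1 over replicate 2 for the 10 genes: circles, TMM-scaled RSEM counts with 95% counting intervals; squares, library totals; triangles, kallisto counts; dotted lines, 2-fold. All values lie inside the dotted lines, and the order of the 3 symbols repeats from gene to gene, with library totals lowest.

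Around the core members, 20 further genes of the pathway were examined, with a median level of 6.49 TPM. In both libraries 19 of them were at or above 1 TPM and 11 at or above 5 TPM. Of all protein-coding genes, 38.6% and 21.5% were. Of the nuclear RNA-binding proteins proposed as indirect readers, Hnrnpa2b1 measured 215 TPM in replicate 1, against 201 TPM in replicate 2, Hnrnpc 30.4 TPM in replicate 1, against 55.3 TPM in replicate 2, and Rbmx 7.23 TPM in replicate 1, against 10.7 TPM in replicate 2. Prrc2a, proposed as a reader, measured 47.1 TPM in replicate 1, against 45.4 TPM in replicate 2, and Fmr1, the gene of the fragile X protein, 23.5 TPM in replicate 1, against 22.3 TPM in replicate 2. Hnrnpa2b1, Prrc2a and Hnrnpc were above Ythdc1 in mean TPM.

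At the low end, Mettl5, which methylates ribosomal RNA with Trmt112, measured 1.17 TPM in replicate 1, against 2.12 TPM in replicate 2, and the methyltransferase gene Mettl4 measured 1.48 TPM in replicate 1, against 2.35 TPM in replicate 2. Ythdc2, a helicase with a YTH domain, measured 2.70 TPM in replicate 1, against 2.43 TPM in replicate 2. Igf2bp1 was listed at 0 in both RSEM tables, but at 1.08 TPM in replicate 1, against 3.58 TPM in replicate 2 by kallisto. In the rest of the writer complex, Virma measured 6.06 TPM in replicate 1, against 6.22 TPM in replicate 2, and Rbm15 10.9 TPM in replicate 1, against 11.2 TPM in replicate 2. Rbm15b measured 2.37 TPM in replicate 1, against 3.42 TPM in replicate 2, and Cbll1 2.07 TPM in replicate 1, against 4.46 TPM in replicate 2. These subunits and Rbmx were named after their values were seen.

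Of the 19 genes with enough counts, 2 were past 2-fold between the libraries, where 13.4% of all genes were. Among the 11368 protein-coding genes, 570 were past 2-fold higher in replicate 1 and 425 past 2-fold lower. Both of the 2 were lower in replicate 1: Igf2bp3, a reader family member, with a log2 ratio of -1.22 (counting interval -1.59 to -0.87), and Mettl5 with -1.07 (-1.54 to -0.62). By kallisto counts neither was past 2-fold (-0.83 for Igf2bp3 and -0.34 for Mettl5), and as a ratio of TPM Mettl5 was not (-0.86). Of the 15 genes of this list that could be scored for retained introns, 6 had a share above 50%, as did 20.4% of the 5524 eligible genes. Their median was 44.0%, close to that of the 4 members, against 30.9% over the 5524 genes. Mettl5 had the highest share, 82.2% in replicate 1 and 93.9% in replicate 2, and Igf2bp3 had 67.2% in replicate 1 and 77.4% in replicate 2.

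Of 7 genes for partners of the readers and for the methyl donor, 6 were at or above 1 TPM in both, where 38.6% of all protein-coding genes were. Nxf1, the mRNA export receptor, measured 117 TPM in replicate 1, against 100.0 TPM in replicate 2. Srsf3, a splicing factor recruited by YTHDC1, measured 48.7 TPM in replicate 1, against 51.0 TPM in replicate 2, and Srsf10, which YTHDC1 keeps from its sites, 24.7 TPM in replicate 1, against 32.7 TPM in replicate 2. Cnot1, the deadenylase scaffold bound by YTHDF2, measured 25.5 TPM in replicate 1, against 46.8 TPM in replicate 2. Upf1, a helicase of mRNA decay, measured 9.09 TPM in replicate 1, against 7.53 TPM in replicate 2. Mat2a, the S-adenosylmethionine synthetase whose mRNA is methylated by METTL16, measured 29.8 TPM in replicate 1, against 39.6 TPM in replicate 2. Rida, the adaptor between YTHDF2 and an endonuclease, was lowest with 0.350 TPM in replicate 1, against 0.760 TPM in replicate 2.

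**Figure D5:**
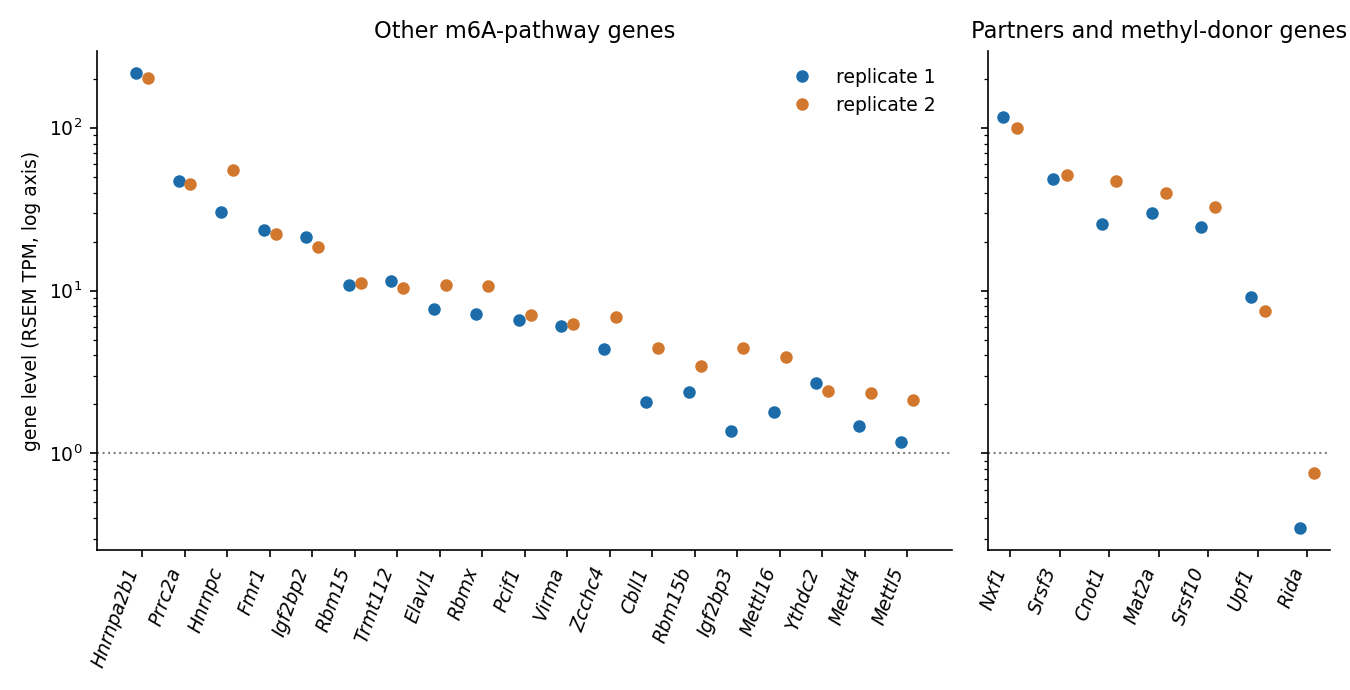
RSEM gene level in TPM (log axis) of 19 further m6A-pathway genes and 7 partner or methyl-donor genes in replicate 1 and replicate 2, ordered by mean; Igf2bp1, listed at 0, is left out and the dotted line is 1 TPM. Hnrnpa2b1 and Nxf1 stand highest, and Rida is below 1 TPM in both libraries.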

How the data were processed

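The 2 replicate libraries of 1 group were used. Per the file headers, the authors' first set of tables gives each gene and transcript an expected count, a TPM and, for a transcript, its percent of the gene's TPM, under the column names of RSEM. The deposited bounds of TPM were not used, since their interval level is not given. The second set, under the column names of kallisto, gives an estimated count and TPM per transcript, summed here per gene. Annotation is GENCODE M21 on mm10. No source used here gives the software versions. Rows naming no gene were left out (0.766% of replicate 1's expected counts, 0.272% of replicate 2's).

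Expected counts were rounded and scaled by TMM (edgeR 4.0.16, R 4.3.3) with a prior count of 0.5; DESeq2 1.42.0 size factors, library totals and kallisto counts were alternatives. The ratio step was tested on simulated data. Counting intervals are 95% intervals and cover counting error only. A count of 0, taken as at most 3, allows 0.102 CPM in replicate 1 and 0.169 CPM in replicate 2. List medians are of log2(TPM + 1), printed as TPM. With 2 libraries of 1 group no test was made.

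The members and lists were chosen with earlier results of these data known. All members were named, and of the other lists the 4 highest and lowest genes and those past 2-fold. Isoforms named were the most abundant and those at 10% or more of the gene in both libraries; others were chosen after their values were seen.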

Additional observations from a re-analysis of the deposited data

How the results depend on the processing

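Under the alternatives tried, the sign of the log2 ratio between the libraries changed for 6 members and for the members' median. Relative to each scaling's own median, a centring chosen after seeing the data, it changed for 4, by kallisto counts. The median level of the members was 8.29 TPM, against 5.55 TPM by kallisto and 28.3 TPM when TPM was rescaled to protein-coding and long non-coding genes, which held 24.8% of TPM in replicate 1 and 34.0% in replicate 2. The members' median log2 ratio of replicate 1 over replicate 2 was -0.13, 0.05 by kallisto counts and -0.42 as a ratio of TPM. With 5 TPM in place of 1 TPM, 11 in place of 19 other pathway genes passed. The log2 ratio of Mettl3 over Mettl14 was 2.16, against 2.77 by kallisto and 0.50 on coding isoforms. On coding isoforms Ythdf2 held 13.5% and Ythdf3 63.7% of the summed YTHDF level, against 19.4% and 59.3% over all isoforms. The retained-intron share of Mettl3 was 54.0%, and 39.6% as a share of expected counts and 48.4% without replicate 2, both below 50%. That of Ythdc1 was 67.5%, and 46.4% when the isoform that is nearly all exonic was not counted as retained-intron but stayed in the total. Apart from these last alternatives, whose construction shows the isoforms concerned, the cause was not tested. With 2 libraries, leaving out either leaves the value of the other, as given per replicate above, and no ratio between libraries. The shallower replicate limits low genes most, Mettl14 resting on 327 counts in replicate 1 and 272 in replicate 2. No paired analysis was possible because the libraries form 1 group.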
